A study of Mus musculus with 22 samples.

Results

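The mitochondrial ribosomal proteins are the nuclear-encoded protein subunits of the ribosome inside mitochondria. Their genes were taken as every symbol of the deposited table that starts with Mrpl or Mrps followed by a digit. This rule found 77 of 12596 genes, 48 with the stem Mrpl for the large subunit and 29 with the stem Mrps for the small subunit. As classed here, 30 encode large-subunit proteins with a bacterial counterpart and 20 encode large-subunit proteins particular to mitochondria. For the small subunit, 16 encode proteins with a bacterial counterpart and 10 encode proteins particular to mitochondria. Mrps18a was counted among the 30 and its paralog Mrps18b among the 10, and the placement of Mrps18a is a choice made here. The remaining member, Mrps36, carries the family name but encodes a component of the ketoglutarate dehydrogenase complex. The rescue factor Mrpl58, part of the large subunit, stands in the table under its older symbol Ict1, which the rule does not match, and is counted below among the ribosome proteins outside the naming pattern.

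The mitochondrial ribosome translates the few messenger RNAs that mitochondrial DNA encodes, all of them for subunits of the respiratory chain and the ATP synthase. Its ribosomal RNAs come from mitochondrial DNA, but its proteins are made on cytosolic ribosomes and imported. Compared with its bacterial relatives it has lost RNA and gained proteins found only in mitochondria. Noradrenergic neurons of the locus coeruleus are continuously active cells with a high demand for mitochondrial energy.

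The RNA came from mice on a C57Bl/6 background that carried both Th-cre, which drives Cre recombinase from tyrosine hydroxylase sequences, and Slc6a2-eGFP/Rpl10a, in which the noradrenaline transporter gene's sequences drive a tagged protein of the cytosolic ribosome. All 4 groups share this cross. Animals were infused with hTyr, human tyrosinase, or with the fluorescent protein EYFP as the control. An immunoprecipitation of the tagged ribosomes gave the IP libraries, labelled noradrenergic, and RNA from before that step gave the input libraries, labelled total hindbrain. There were 6 libraries each of EYFP input and EYFP IP, and 5 each of hTyr input and hTyr IP. The number in a sample's title, shared by 1 IP and 1 input library, was read as the animal, which makes 11 animals, named here by their IP library (animal IP_507 gave IP_507 and Pre_507). The age and sex of the mice and the time after infusion are not given in the sources used here. The labels do not say that the libraries came from separate animals, so the p-values measure the spread between these samples, which may be technical.

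Libraries held 12654489 to 25100142 reads in the table, with 12654489 to 20368032 in IP and 16988860 to 25100142 in input. A member had between 85 and 3091 reads in a library, with a median of 854, so no member was near the limit of detection. All 10 noradrenergic markers were higher in IP than in input in both treatments, and their summed level was 170 to 202 CPM (reads scaled to a common library total) in EYFP input, 610 to 1293 in EYFP IP, 174 to 217 in hTyr input and 743 to 2100 in hTyr IP. The IP libraries also held RNA of other cells. The 8 oligodendrocyte markers summed to 5871 to 7560 CPM in EYFP IP and 6277 to 8257 in EYFP input, and to 5795 to 8082 in hTyr IP and 7081 to 8854 in hTyr input. The 7 astrocyte markers summed to 1074 to 1685 CPM in EYFP IP against 1063 to 1359 in EYFP input. In hTyr animals the astrocyte sum was 1332 to 1655 in IP and 1107 to 1325 in input. The 8 markers of other neurons summed to 1210 to 1500 CPM in EYFP IP, 859 to 1142 in EYFP input, 1083 to 1397 in hTyr IP and 837 to 1055 in hTyr input. No marker in the table was at 0 in all libraries of a group. In such bulk samples, fewer cells of a type and less RNA per cell cannot be told apart, and the part of other cells in the results below was not tested. The level of the infused gene was not analysed here.

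Promoters are shown for the member with the largest called rise in IP of EYFP animals (Mrps22), for the member with the largest called fall there (Mrps18b), and for Mrpl12, which encodes the stalk protein that recruits translation factors to the ribosome. Each line gives the 250 bases before the annotated start, read 5′ to 3′ along the gene's strand, from RefSeq on build GRCm38.p6. Capitals mark a match to a motif of NRF1 (GCGC, any base, then TGCGC) or of ETS factors such as GABPA (CCGGAAG), or to that of YY1 (AANATGGCG), searched on both strands.
Mrps22: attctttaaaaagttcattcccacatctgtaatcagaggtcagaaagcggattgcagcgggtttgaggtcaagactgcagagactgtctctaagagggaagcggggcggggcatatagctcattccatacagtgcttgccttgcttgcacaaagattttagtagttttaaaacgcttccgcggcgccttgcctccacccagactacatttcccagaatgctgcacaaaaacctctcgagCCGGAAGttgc
Mrps18b: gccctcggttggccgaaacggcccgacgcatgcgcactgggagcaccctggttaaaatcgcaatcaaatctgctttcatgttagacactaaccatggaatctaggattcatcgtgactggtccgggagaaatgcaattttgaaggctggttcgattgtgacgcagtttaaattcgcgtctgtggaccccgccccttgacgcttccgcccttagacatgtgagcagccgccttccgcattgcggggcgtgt
Mrpl12: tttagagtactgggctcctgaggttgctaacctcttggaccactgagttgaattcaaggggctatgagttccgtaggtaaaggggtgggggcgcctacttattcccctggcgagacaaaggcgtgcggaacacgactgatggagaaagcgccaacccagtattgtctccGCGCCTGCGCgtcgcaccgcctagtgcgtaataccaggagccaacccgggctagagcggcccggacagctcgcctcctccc
The Mrps22 sequence lies at chr9:98601680-98601929 on the minus strand and ends with an ETS match close to the start. The Mrps18b sequence lies at chr17:35916441-35916690 on the minus strand and holds none of the 3 motifs in this window. In a longer window of 300 bases, which runs on past the start, Mrps18b also has an ETS match. The Mrpl12 sequence lies at chr11:120484387-120484636 on the plus strand and holds an NRF1 match.

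Over the longer window of 300 bases, which runs on past the start, the ETS motif was found in 24 of the 68 members with a RefSeq promoter (35.3%) and in 17.7% of the 9578 genes of the table that have one. The NRF1 motif was found in 13 members (19.1%) against 10.5% of genes. The YY1 motif was found in 10 members (14.7%) against 5.48% of genes. In the 250 bases before the start alone, the counts were 16 members for ETS (23.5% against 13.4%), 10 for NRF1 (14.7% against 8.29%) and 2 for YY1 (2.94% against 2.19%), so most YY1 matches touched the bases after the start. These factors are known as regulators of nuclear genes for mitochondrial proteins. A match is a stretch of letters, and none of these data measured binding.

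Some members had a close neighbour. A protein-coding neighbour started within 1000 bases on the opposite strand, head to head, for 18 of the 77 members (23.4%) and for 1133 of the 11738 genes of the table that could be placed (9.65%). This count used GENCODE M21 gene extents and left out pairs whose extents overlap at their starts. Mrpl46 (minus strand, start at chr7:78783089 by RefSeq) and Mrps11 (plus strand, start at chr7:78783131) are not among the 18. Mrps12, which encodes the protein of the decoding centre, starts 172 bases from Sars2, the mitochondrial seryl-tRNA synthetase gene. Mrps18b starts 45 bases from Ppp1r10, Mrpl57 starts 49 bases from Ska3, and Mrpl49 starts 59 bases from Fau, a cytosolic ribosomal protein gene. Mrps27 starts 81 bases from Ptcd2. Exons of 25 members overlap exons of another gene, and in 10 of them the overlap covers over 20% of the exon bases. The strand setting of the read counting is not given in the sources used here, so values of these genes are uncertain. The share is 59.1% for Mrps18b (antisense Gm16279), 22.6% for Mrps27 (antisense 6430562O15Rik) and 22.4% for Mrpl33 (Gm43809, on the same strand), and below that bound it is 18.1% for Mrps30 (antisense B430218F22Rik). Annotated pseudogenes of Mrpl23, Mrpl48 and Mrps36 could also share reads with their parent genes.

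Levels of single members spanned a wide range while their mean differed little between groups. On the log2 CPM scale, the mean over the 77 members was 5.39 ± 0.05 in EYFP input and 5.50 ± 0.06 in EYFP IP (SD, n = 6 each), and 5.44 ± 0.11 in hTyr input and 5.50 ± 0.07 in hTyr IP (SD, n = 5 each). EYFP input libraries lay between 5.31 and 5.44 and EYFP IP libraries between 5.44 and 5.59. The members took 0.365% ± 0.018 of the reads of an EYFP input library, 0.385% ± 0.016 of EYFP IP, 0.378% ± 0.0284 of hTyr input and 0.382% ± 0.0185 of hTyr IP. The IP minus input difference of the mean within an animal ran from -0.12 in hTyr animal IP_510 to 0.28 in EYFP animal IP_507 and hTyr animal IP_509. The noradrenergic markers, by contrast, had a median IP minus input log2 change of 1.955 in EYFP animals and 2.644 in hTyr animals.

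Per kilobase of transcript, the level in EYFP input was highest for Mrps21 (7.55 ± 0.08 log2 CPM per kb), followed by Mrpl30 (7.11 ± 0.06), Mrpl52 (6.98 ± 0.15), Mrps33 (6.85 ± 0.16), Mrps12 (6.53 ± 0.12) and Mrpl20 (6.52 ± 0.16; SD, n = 6 each). Mrps21 stood above Mrpl30 by more than their SDs, while Mrpl30 and Mrpl52, Mrpl52 and Mrps33, and Mrps12 and Mrpl20 did not differ beyond their spread. The lowest levels were those of Mrpl47 (2.27 ± 0.11), Mrps5 (2.53 ± 0.16), Mrpl32 (2.57 ± 0.18) and Mrps35 (2.58 ± 0.06), the last 3 within their spread of each other. In hTyr IP, Mrps21 (7.18 ± 0.14) was again first and Mrpl47 (2.37 ± 0.31) last (SD, n = 5), but Mrps21 did not differ from Mrpl52 (7.04 ± 0.28) beyond their spread and came at rank 2 behind it by the longest transcript. Measured by the longest annotated transcript, 8 of the 10 highest members in EYFP input were the same, but Mrps33 fell from rank 4 to rank 22. By that measure Mrpl1 fell from rank 68 to rank 76, at 2.31 log2 CPM per kb, below Mrps5, Mrpl32 and Mrps35.

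IP against input asks which RNAs were more abundant on the tagged ribosomes than in the tissue RNA. In EYFP animals 26 members were higher and 6 lower in IP (limma, Benjamini-Hochberg adjusted p under 0.05 over all genes), that is 32 of 77, while 56.5% of all genes tested passed in either direction, 28.5% higher and 28.1% lower. The member median was 0.059 on the log2 scale against -0.025 for all genes, and single members ran from -0.41 to 0.96. In hTyr animals 18 members were higher and 10 lower, against 54.4% of all genes in either direction, 27.4% higher and 27% lower, with a member median of 0.012 against -0.036. The sign of that hTyr median was not stable: it was -0.026 without animal IP_508, -0.053 without IP_509, 0.048 without IP_510 and -0.057 after median centring. At an unadjusted p under 0.05 there were 35 members in EYFP (61.6% of all genes) and 33 in hTyr (59.6% of all genes). Over both directions together, the share of members called was thus below the background in both treatments (41.6% in EYFP and 36.4% in hTyr). By direction, 33.8% of members were higher and 7.79% lower in EYFP animals, and 23.4% higher and 13% lower in hTyr animals. The share of higher calls in EYFP animals thus lay above that of all genes. Lower calls in EYFP animals, 6 of 77, fell furthest short of the background. After median centring of the libraries the calls were 18 higher and 10 lower in EYFP animals and 14 higher and 16 lower in hTyr animals, so which direction held more members in hTyr animals depended on the scaling. Once the dependence of the values on transcript length and GC content had been taken out of every library, they were 34 higher and 9 lower in EYFP animals and 30 higher and 10 lower in hTyr animals. The shares of all genes called after median centring or trend removal are not given here, so these counts stand without a background.

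The 3 largest rises in both treatments were those of Mrps22, Mrps31 and Mrpl1. Mrps22 encodes a small-subunit protein particular to mitochondria and lies at chr9:98588730-98601679 on the minus strand of GRCm38.p6. Its level was 4.15, 4.32 and 4.57 log2 CPM (lowest, median and highest) in EYFP input and 4.83, 5.42 and 5.60 in EYFP IP. It was 4.20, 4.21, 4.29, 4.33 and 4.71 in hTyr input and 5.24, 5.27, 5.41, 5.56 and 5.63 in hTyr IP. Every IP library lay above every input library of its treatment, and the IP library was the higher one in 11 of 11 animals. The log2 change was 0.96 in EYFP (SE 0.12, limma adjusted p = 1.17e-05), a 1.94-fold rise, and 1.07 in hTyr (SE 0.12, limma adjusted p = 1.08e-06), a 2.10-fold rise.

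Mrps31 encodes another small-subunit protein particular to mitochondria. It stood at 3.74, 4.08 and 4.29 log2 CPM in EYFP input and 4.52, 5.02 and 5.21 in EYFP IP (lowest, median and highest), and at 3.82, 3.88, 4.17, 4.18 and 4.39 in hTyr input and 4.76, 4.82, 4.92, 5.10 and 5.30 in hTyr IP. IP and input did not overlap in either treatment, and the IP library was higher in 11 of 11 animals. The change was 0.87 in EYFP (SE 0.12, limma adjusted p = 2.08e-05) and 0.89 in hTyr (SE 0.13, limma adjusted p = 2.65e-05).

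Mrpl1, the protein of the mobile stalk where spent transfer RNA leaves the large subunit, had the smallest spread of these 3 in hTyr IP. It stood at 3.84, 4.13 and 4.26 log2 CPM in EYFP input and 4.65, 4.87 and 5.12 in EYFP IP, and at 3.89, 4.05, 4.17, 4.18 and 4.37 in hTyr input and 4.98, 4.99, 5.05, 5.05 and 5.24 in hTyr IP. The groups again did not overlap, and 11 of 11 animals had the higher level in IP. The change was 0.78 in EYFP (SE 0.10, limma adjusted p = 8.67e-06) and 0.93 in hTyr (SE 0.11, limma adjusted p = 1.95e-06).

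**Figure D1:**
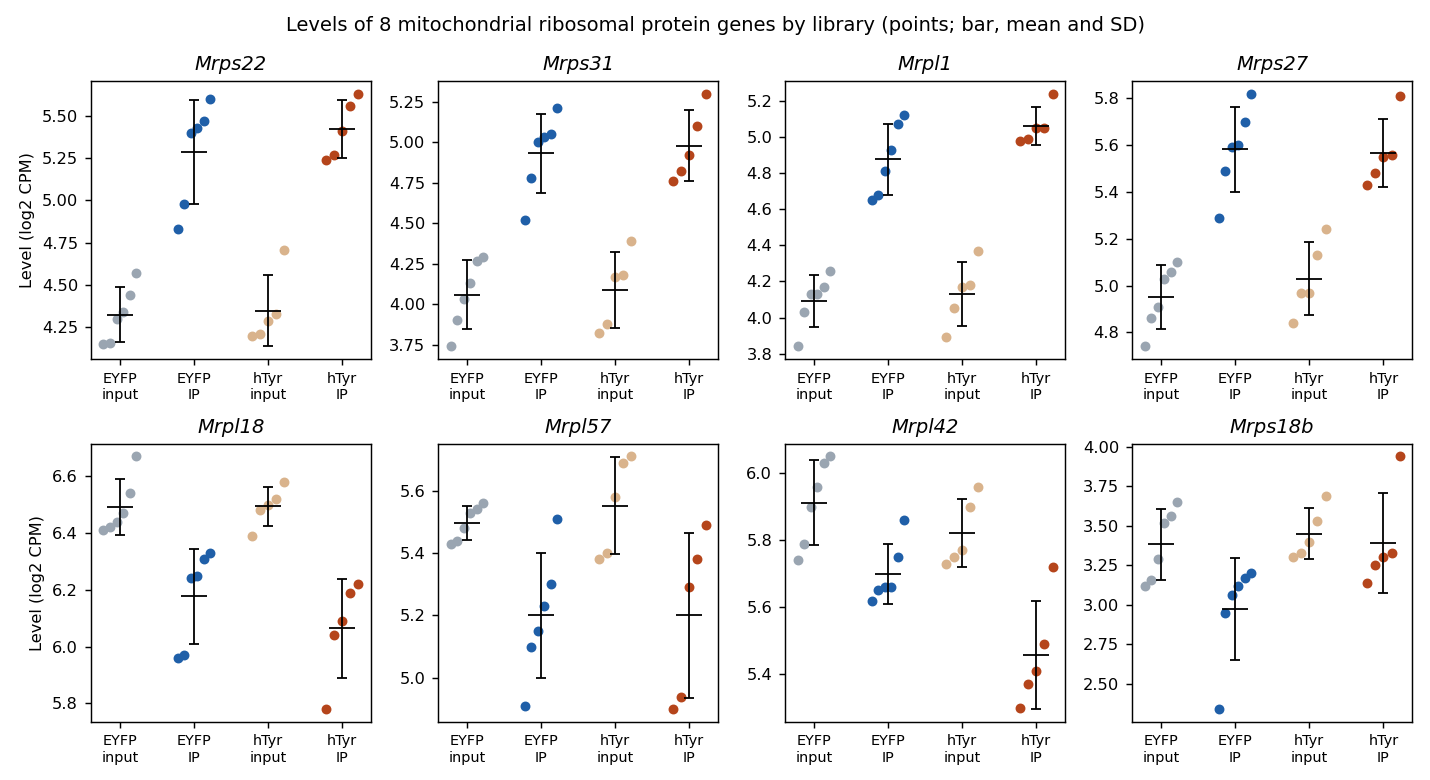
Level of 8 members in each library (y axis, log2 CPM) by group (x axis); points are libraries, 6 per EYFP and 5 per hTyr group, and bars are the mean and SD. In the upper row the IP points of Mrps22, Mrps31, Mrpl1 and Mrps27 all lie above the input points of the same treatment; in the lower row Mrpl18 shows the opposite order, and Mrps18b overlaps between groups.

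The next rises were in both subunits. Mrps27, a small-subunit protein of the pentatricopeptide repeat type, rose by 0.63 in EYFP (SE 0.09) and 0.53 in hTyr (SE 0.10). Mrps30, a large-subunit protein despite its symbol, rose by 0.57 in EYFP and 0.55 in hTyr. After removal of the length and GC trend its change in hTyr was 0.22 (limma adjusted p = 0.173), which no longer passed. Mrpl39, particular to the mitochondrial large subunit, rose by 0.51 and 0.63, and Mrpl16, which has a bacterial counterpart, by 0.51 and 0.54. Mrpl22, a protein of the exit tunnel for the new chain, rose by 0.43 and 0.44, Mrpl15 by 0.41 and 0.40, and Mrps9 by 0.43 and 0.36. Mrpl32 rose by 0.33 and 0.36 (EYFP and hTyr in turn). Mrpl15 and Mrpl32 also lost their hTyr call once the length and GC trend was removed, with 0.17 for Mrpl15 and a turned direction for Mrpl32, -0.06. Without hTyr animal IP_509, limma's adjusted p in hTyr was 0.0922 for Mrpl22, 0.0763 for Mrpl15 and 0.0526 for Mrpl32. Without hTyr animal IP_508 it was 0.0847 for Mrpl15, and without hTyr animal IP_501 it was 0.0816 for Mrpl32.

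Of the 26 members higher in EYFP animals, 18 (69.2%) were also higher in hTyr animals, which is 100% of those higher in hTyr. Beside the 11 members just named these were Mrps5, Mrpl9, Mrpl19, Mrpl35, Mrpl38, Mrpl44 and Mrpl45, with changes of 0.22 to 0.39 in EYFP. The 8 called higher in EYFP alone had changes of 0.17 (Mrps35) to 0.28 (Mrpl47) there, and none of them was called in the interaction test given below. Groups did not overlap for 13 members higher in EYFP IP (16.9%, against 16.7% of all genes) and for 10 in hTyr IP (13%, against 20.7%). In the other direction they did not overlap for 1 member in EYFP (1.3%, against 13.4%) and 7 in hTyr (9.09%, against 16.8%). The changes of the 77 members in the EYFP and hTyr animals, which share no library, had a Pearson r of 0.929 and a Spearman rho of 0.907, with the same sign in 64 members. These are descriptions over genes of the same libraries. The overlap of calls and the correlations over all genes are not given here, so they are not shown to be particular to the members.

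**Figure D2:**
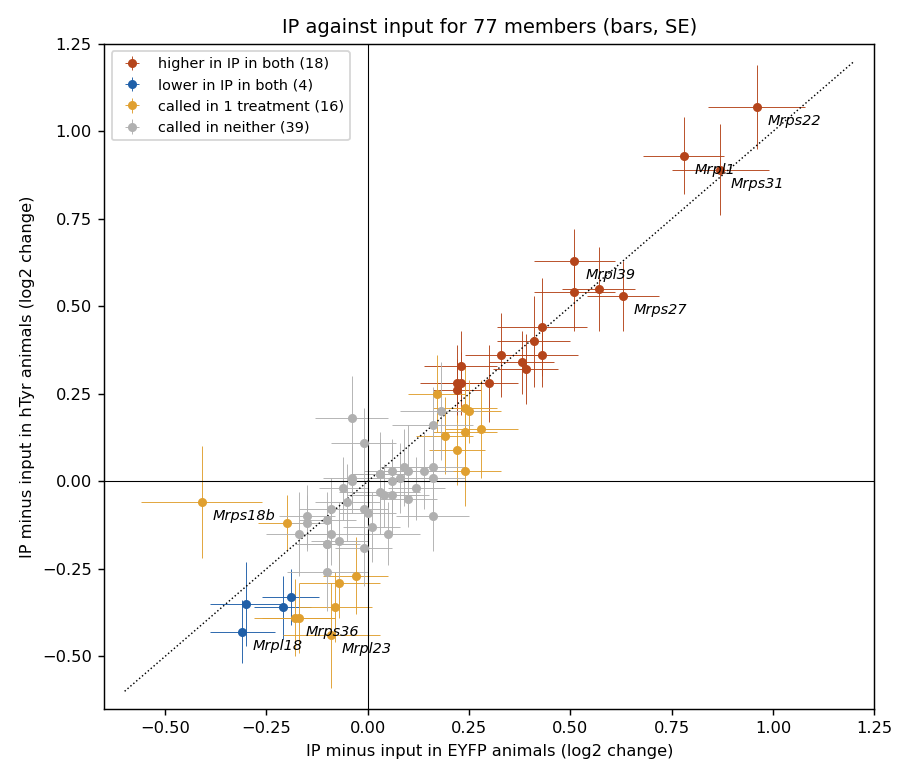
IP minus input log2 change of each of the 77 members in EYFP animals (x axis) and hTyr animals (y axis); points are genes, bars are SE, the dotted line marks equal changes and colours give the calls. Mrps22, Mrps31 and Mrpl1 stand apart at the upper right, 18 members were called higher in both treatments and 4 lower in both, and no member was called in opposite directions.

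The falls were smaller. Mrpl18, a large-subunit protein of the family that binds ribosomal RNA, stood at 6.41, 6.46 and 6.67 log2 CPM in EYFP input and 5.96, 6.24 and 6.33 in EYFP IP (lowest, median and highest). It stood at 6.39, 6.48, 6.50, 6.52 and 6.58 in hTyr input and 5.78, 6.04, 6.09, 6.19 and 6.22 in hTyr IP. It was the only member whose IP libraries all lay below the input libraries in both treatments. Its change was -0.31 in EYFP (SE 0.08, limma adjusted p = 0.00317) and -0.43 in hTyr (SE 0.09, limma adjusted p = 0.000676).

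Mrpl57, Mrpl42 and Mrps17 also had lower levels in IP in both treatments. Mrpl57, a small protein particular to the large subunit, changed by -0.30 in EYFP (SE 0.09) and -0.35 in hTyr (SE 0.12), and some of its IP libraries overlapped input. Mrpl42, particular to mitochondria, changed by -0.21 and -0.36, and Mrps17, of bacterial type, by -0.19 and -0.33 (EYFP and hTyr in turn). Some of these calls were lost when a single animal was left out. In EYFP, limma's adjusted p for Mrpl42 was 0.0895 without animal IP_504, 0.0742 without IP_506 and 0.0841 without IP_512. For Mrps17 it was 0.197 without IP_504, 0.167 without IP_506, 0.0517 without IP_511 and 0.0781 without IP_512, and 0.0504 with no mean-variance trend. In hTyr, limma's adjusted p for Mrpl57 was 0.0534 without IP_501 and 0.107 without IP_502. The number of members called lower in EYFP was 3 without animal IP_504 and 2 without animal IP_506. In hTyr it was 6 without animal IP_501, and the number called higher was 10 without animal IP_509.

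Mrps18b, the member with the fewest reads, was lower in IP of EYFP animals, with a log2 change of -0.41 (SE 0.15, limma adjusted p = 0.0282). Its levels were 3.12, 3.40 and 3.65 log2 CPM in EYFP input and 2.34, 3.09 and 3.20 in EYFP IP, so the groups overlapped and 1 IP library lay far below the rest. Without that animal, IP_507, the change was -0.30 (limma adjusted p = 0.0631). The adjusted p was 0.0583 without IP_504 and 0.0816 without IP_506, and with the length and GC trend removed the change was -0.26 (limma adjusted p = 0.178). In hTyr animals its change was -0.06 (SE 0.16, limma adjusted p = 0.776), and the difference between the treatments was 0.35 (SE 0.22, limma adjusted p = 0.996). Mrps2, of the bacterial type, changed by -0.20 in EYFP (SE 0.07, limma adjusted p = 0.0234), which gave 0.0979 without IP_506, 0.0820 without IP_507 and 0.0569 without IP_511. The 3 paralogs differ in place: Mrps18a sits in the large subunit, and Mrps18b and Mrps18c in the small one. The value for Mrps18a was -0.10 in EYFP and -0.18 in hTyr (limma adjusted p = 0.285 and 0.0719), and for Mrps18c -0.05 and -0.06, none past the threshold, although Mrps18a passed in hTyr after median centring (-0.25, limma adjusted p = 0.018).

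In hTyr animals 6 further members were called lower, namely Mrpl23 (-0.44), Mrps36 (-0.39), Mrps21 (-0.39), Mrpl33 (-0.36), Mrpl34 (-0.29) and Mrps24 (-0.27). Their EYFP changes were -0.09 for Mrpl23, -0.18 for Mrps36, -0.17 for Mrps21, -0.08 for Mrpl33, -0.07 for Mrpl34 and -0.03 for Mrps24. None of them was called in the same test, which does not show that their changes were equal. Mrpl23, Mrps21, Mrpl33 and Mrps24 were among the members with the lowest p values in it. Mrpl23 encodes a protein at the exit of the tunnel. Its levels were 3.60, 3.69, 3.72, 3.82 and 3.88 log2 CPM in hTyr input and 2.86, 3.07, 3.50, 3.52 and 3.58 in hTyr IP, without overlap. With the length and GC trend removed the hTyr changes were -0.01 for Mrpl23, -0.16 for Mrps36, -0.06 for Mrps21, -0.01 for Mrps24 and 0.15 for Mrpl34, none past the threshold. For Mrpl23 limma's adjusted p was 0.0855 without hTyr animal IP_501 and 0.122 without IP_510. For Mrpl34 it was 0.0849, 0.0616 and 0.0788 without IP_501, IP_502 and IP_510 in turn, and for Mrps24 it was 0.0558, 0.183 and 0.224, and 0.0637 with no mean-variance trend.

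The changes of the members went with transcript length. Over the 77 members, Spearman's rho of the IP minus input change with transcript length was 0.316 in EYFP and 0.376 in hTyr animals, and with GC content -0.205 and -0.282. Over the 12376 genes with a length it was 0.079 and 0.130 for length and -0.349 and -0.451 for GC content. The 18 members higher in both treatments had a median length of 1730 bases and a median level of 4.97 log2 CPM in EYFP input. The 12 members lower in either treatment had a median length of 747 bases and a level of 5.56, and the 39 called in neither had 1068 bases and 5.81. Members were short, with a median of 1226 bases against 2832 for all genes, and their GC content was close to that of all genes (50.5% against 50.9%). The part of length in these changes was not tested beyond the removal of its trend, under which Mrps22, Mrps31, Mrpl1, Mrps27, Mrpl39 and Mrpl16 kept their calls in both treatments.

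By class, the large subunit held 11 higher and 1 lower of 30 bacterial-type members in EYFP (hTyr 8 and 4), and 8 higher and 2 lower of 20 mitochondria-specific ones (hTyr 5 and 2). The small subunit held 3 higher and 2 lower of 16 bacterial-type members (hTyr 2 and 3), and 4 higher and 1 lower of 10 mitochondria-specific ones (hTyr 3 and 0). In this order, 36.7%, 40%, 18.8% and 40% of the classes were higher in EYFP (28.5% of all genes), and 3.33%, 10%, 12.5% and 10% lower (28.1% of all genes). In hTyr, 26.7%, 25%, 12.5% and 30% were higher (27.4% of all genes), and 13.3%, 10%, 18.8% and 0% lower (27% of all genes). Differences between the classes were not tested. Medians of these 4 classes in EYFP animals ran from -0.038 for the small bacterial type to 0.140 for the small mitochondria-specific type. Mrpl12 changed by 0.14 in EYFP and 0.03 in hTyr, and Mrps12 by 0.04 and -0.04, none past the threshold. With the length and GC trend removed both passed as higher, at 0.26 and 0.25 for Mrpl12 and 0.29 and 0.38 for Mrps12.

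Other lists of mitochondrial gene expression are read against the 56.5% of all genes called in EYFP and 54.4% in hTyr. The share called in EYFP was 69.2% of the translation factors, 59.1% of the genes for mitochondrial DNA and RNA handling and 46.7% of the assembly factors. Over both directions together, the last 2 lists were thus near or below the background. By direction in EYFP, 45.5% and 40% of these 2 lists were higher (28.5% of all genes), and 13.6% and 6.67% lower (28.1% of all genes). In hTyr, 40.9% and 30% were higher (27.4% of all genes), and 13.6% and 6.67% lower (27% of all genes). Of 13 translation factors, 9 were higher and 0 lower in EYFP IP (hTyr 8 and 1), with a median of 0.366. They include Tufm, the elongation factor that delivers transfer RNA (0.84 in EYFP and 0.80 in hTyr), the initiation factor Mtif2 (0.70 and 0.92), the elongation factor Gfm1 (0.64 and 0.82) and the release factor Mtrf1l (0.65 and 0.64). The lower one in hTyr was Pdf, the peptide deformylase (-0.29). Of 22 genes for mitochondrial DNA transcription, replication and RNA handling, 10 were higher and 3 lower in EYFP (hTyr 9 and 3). The largest rises were those of Lrpprc, which stabilises mitochondrial messenger RNA (1.46 and 1.59), Trmt10c, a subunit of mitochondrial ribonuclease P (1.23 and 1.39), Pnpt1, the polynucleotide phosphorylase (1.16 and 1.40), and Mterf2, of the transcription termination factor family (1.13 and 1.46). The lower ones in EYFP were Fastk (-0.29), the RNA helicase Supv3l1 (-0.23) and Peo1, an older symbol of the DNA helicase Twinkle (-0.23).

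Of 30 ribosome assembly factors, 12 were higher and 2 lower in EYFP (hTyr 9 and 2), among them the helicase Ddx28 (0.69 and 0.74) and, in the other direction, Mief1, better known for a receptor of mitochondrial fission (-0.44 and -0.35). Ribosome proteins whose symbols lie outside the Mrpl and Mrps pattern gave 3 higher and 0 lower of 6 in EYFP (hTyr 2 and 0). These were the small-subunit proteins Ptcd3 (0.83 and 1.03) and Dap3 (0.49 and 0.52), and the large-subunit protein Gadd45gip1 (0.33 in EYFP, and 0.24 with a limma adjusted p of 0.0524 in hTyr). For Ict1 the values were 0.08 and -0.01 (limma adjusted p = 0.404 and 0.907). Of 4 genes for insertion of new chains into the inner membrane, 1 was higher and 2 lower in EYFP (hTyr 1 and 0). For comparison, the 87 cytosolic ribosomal protein genes gave 2 higher and 5 lower in EYFP and 1 higher and 19 lower in hTyr. The 81 nuclear genes for respiratory chain and ATP synthase subunits gave 25 higher and 2 lower in EYFP and 18 higher and 16 lower in hTyr. Their medians in hTyr were -0.125 and -0.132.

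**Figure D3:**
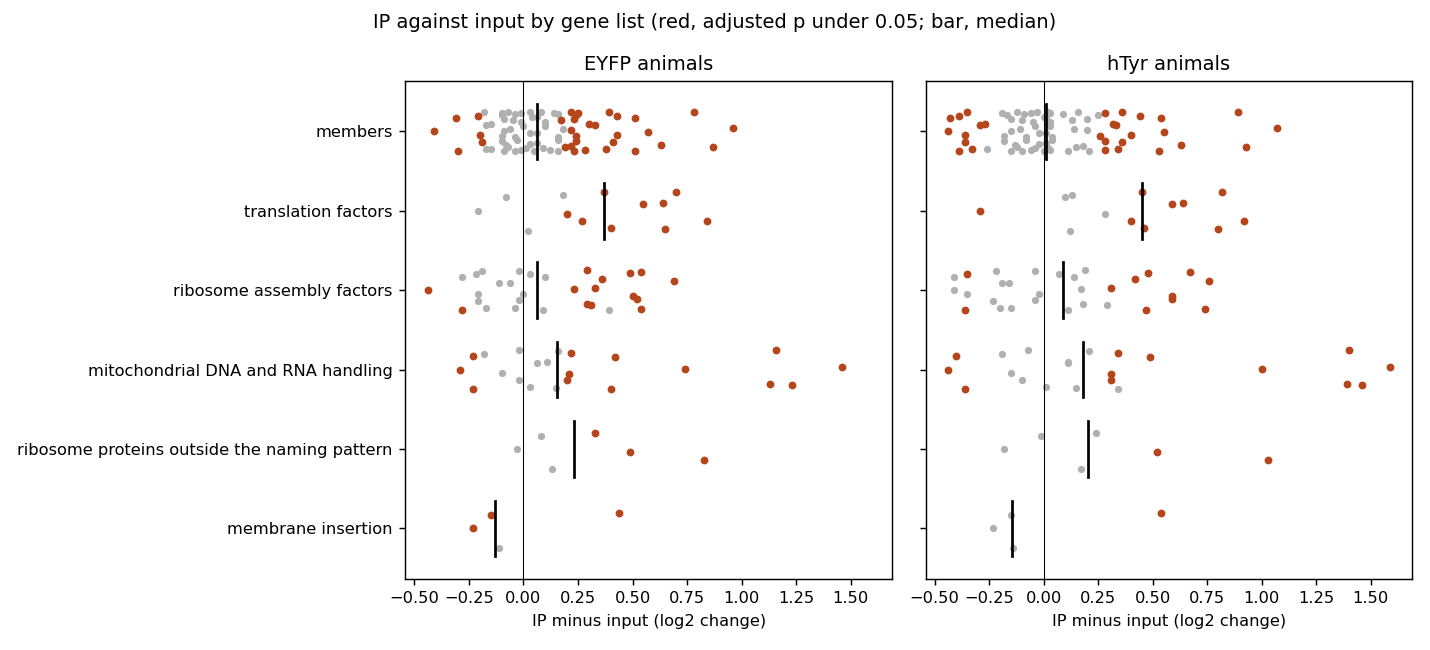
IP minus input log2 change (x axis) of each gene by list (y axis) in EYFP animals (left) and hTyr animals (right); points are genes, red where limma's adjusted p was under 0.05, and black bars are medians. The members lie around 0 with a tail led by Mrps22, while the median of the translation factors lies at 0.366 in EYFP animals.

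The contrast of hTyr with EYFP among IP libraries compares RNA on the tagged ribosomes between the treatments. In it 9 of 10 noradrenergic markers lay above 0 (median 0.325, 0 called). Differences in cell content and in RNA per cell cannot be told apart here. No member was called, 0 higher and 0 lower, and 0.0556% of all genes tested passed (limma, 7 of 12596). At an unadjusted p under 0.05 there were 3 members, against 6.19% of all genes, and voom in limma on the recovered reads called 0 members. The member median was 0.005 against -0.005 for all genes, with 39 members above 0 and 38 below. The 95% interval of the change lay within 1.5-fold in both directions for 75 of the 77 members, all but Mrpl23 and Mrps18b, and the median width on either side was 0.20 on the log2 scale.

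The members with the lowest p were Mrpl42, Mrpl33, Mrps18b, Mrps21 and Mrpl1. Mrpl42 stood at 5.62, 5.66 and 5.86 log2 CPM in EYFP IP (lowest, median and highest) and at 5.30, 5.37, 5.41, 5.49 and 5.72 in hTyr IP, with 4 of 5 hTyr libraries below the lowest EYFP library. Its difference was -0.24 (SE 0.09, limma adjusted p = 0.754). Mrpl33, a small large-subunit protein, stood at 4.83, 5.01 and 5.24 in EYFP IP and at 4.54, 4.62, 4.67, 4.90 and 5.02 in hTyr IP, a difference of -0.27 (SE 0.11, limma adjusted p = 0.787). Mrps18b stood at 3.14, 3.25, 3.30, 3.33 and 3.94 in hTyr IP against 2.34, 3.09 and 3.20 in EYFP IP, the largest difference of a member in this comparison at 0.42 (SE 0.18, limma adjusted p = 0.791). Its spread came from 1 low EYFP library (IP_507) and 1 high hTyr library (IP_501). Mrps21 differed by -0.20 and Mrpl1 by 0.19, and the groups of all 5 genes overlapped.

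**Figure D4:**
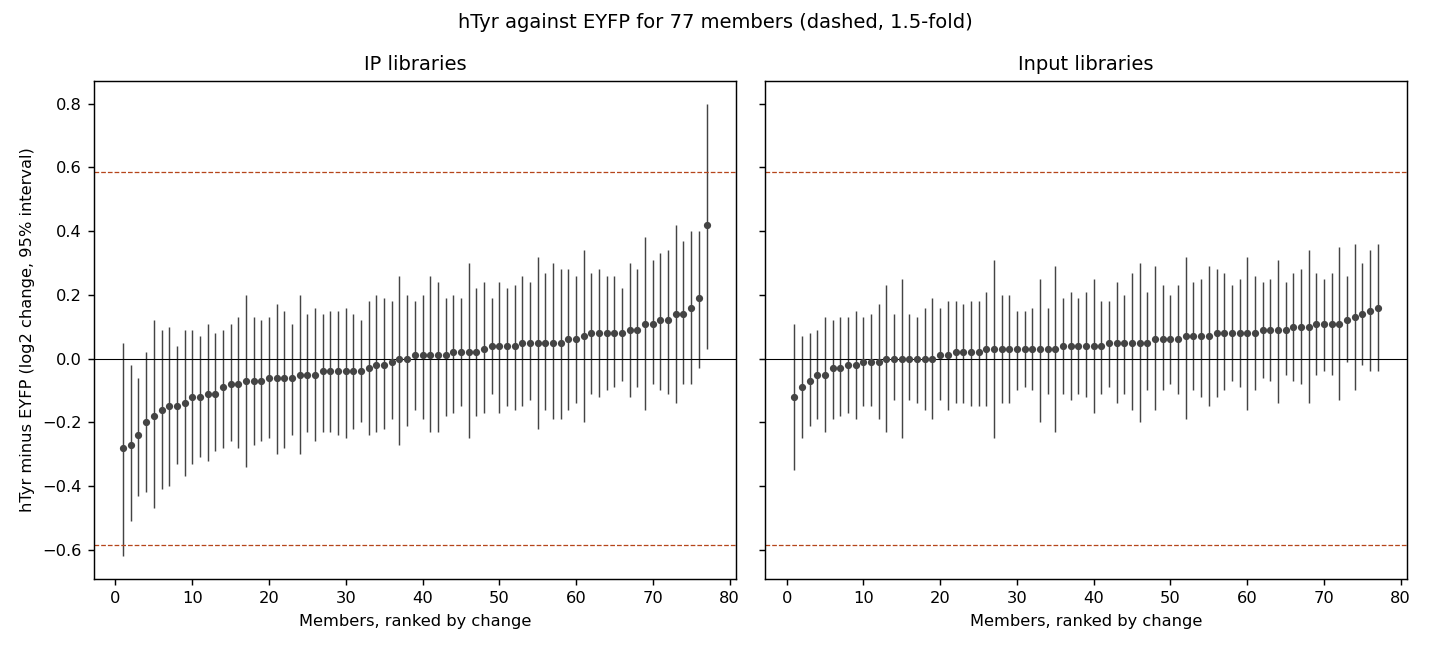
hTyr minus EYFP log2 change (y axis) of the 77 members, ranked by change (x axis), in IP libraries (left) and input libraries (right); points are estimates, vertical lines are 95% intervals and dashed lines mark a 1.5-fold change. In IP 75 intervals and in input all 77 lie between the dashed lines, and no member passed the adjusted threshold.

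The same contrast in input gives the background of whole tissue. No member was called, 0 higher and 0 lower, against 0.00794% of all genes (limma, 1 of 12596), 0 members had an unadjusted p under 0.05 against 3.03% of all genes, and voom in limma called 0 members. All 77 intervals lay within 1.5-fold. The changes ran from -0.12 to 0.16 with a median of 0.041 against -0.009 for all genes, and 62 of 77 members lay above 0. The lowest p values belonged to Mrpl27 (0.12), Mrpl28 (0.14), Mrpl21 (0.16), Mrpl34 (0.15) and Mrps17 (0.11), with limma adjusted p values of 0.990. The lean to positive values moved with other quantities. After median centring 70 of 77 members lay above 0. With the length and GC trend removed 48 of 77 did and the median was 0.018, and without hTyr animal IP_510 it was 47 of 77. Without hTyr animal IP_509 it was 67 of 77 with a median of 0.084. Over all 12376 genes with a length, the hTyr effect in input had a Spearman rho of -0.367 with length and 0.408 with GC content. The respiratory chain list leaned alike, with 75 of 81 genes above 0 and a median of 0.068, and the cytosolic ribosomal list had 67 of 87. Of the marker lists, 8 of 8 oligodendrocyte genes (median 0.103) and 7 of 8 microglia genes (median 0.076) also lay above 0. The remaining marker lists did not lean this way. Above 0 were 4 of 10 noradrenergic genes (median -0.057) and 3 of 7 astrocyte genes (median -0.028). So were 4 of 8 genes of other neurons (median -0.049) and 1 of 5 endothelial genes (median -0.142). The 10 noradrenergic changes ran from -0.91 to 0.25, and 1 of these genes was called lower. It was the only gene of all 12596 called in input. The part of any cell type in the lean was not tested.

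Whether the infusion acted differently on IP RNA than on input RNA was tested as an interaction over all 22 libraries. No member was called in either direction, against 0.00794% of all genes (limma, 1 of 12596). At an unadjusted p under 0.05 there was 1 member, Mrpl33, against 3.31% of all genes, and voom in limma called 0 members. The lowest p values belonged to Mrpl33 (-0.28, SE 0.14), Mrpl28 (-0.25), Mrpl23 (-0.35), Mrps24 (-0.24) and Mrps21 (-0.22), with limma adjusted p values of 0.996. The member median was -0.055 against 0.002 for all genes, with 52 of 77 members below 0. With the length and GC trend removed it was -0.022 with 42 below 0, and without hTyr animal IP_510 it was -0.011 with 39 below 0. Without hTyr animal IP_508 it was -0.090 and without IP_509 -0.124, each with 58 below 0. Respiratory chain genes had a median of -0.167 and cytosolic ribosomal genes one of -0.091 in the same contrast. All 10 noradrenergic markers lay above 0 there, with a median of 0.404 and 0 called, and the part of cell content was not tested.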

How the data were processed

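RNA was sequenced from 11 IP and 11 input libraries. The authors deposited 1 table of log2 CPM values, and the submitters' processing notes name STAR, featureCounts and build mm10. Their versions, the annotation, the filter and the strand setting are not given in the sources used here. The deposited log2 values carry a prior count of 2 reads and came out as whole reads for 100% of values within 0.01 read, which gave the depths. The reads carry no molecular identifiers, so depth speaks only of counting error.

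Changes were tested with limma 3.58.1 in R 4.3.3 (lmFit, eBayes with a mean-variance trend) on all 12596 genes, with Benjamini-Hochberg adjustment over all of them and a threshold of 0.05, and the code was tested on simulated data. The fits hold the groups compared and no block. Title numbers pair IP with input: the deviations of same-numbered libraries had r values of 0.279 to 0.626, 0.448 on average over 11 numbers, so the replicate block was run as an alternative. The members and gene lists were chosen with earlier results of these data known. The genes named are, per comparison, up to 10 called rises and 10 called falls, the 5 lowest p values where fewer than 5 passed, and, in the IP against input comparisons, Mrpl12, Mrpl57, Mrpl58 (as Ict1), Mrps12, Mrps18a, Mrps18b, Mrps18c, Mrps30 and Mrps36. Some other members were named after their values were seen, such as those called in both treatments.

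Alternatives were no trend, median centring, quantile normalization, the upper 75% of genes by mean, a pseudocount of 5 CPM, a shared spread, total reads as a covariate, voom on recovered reads, removal of length and GC trends (loess, span 0.4), the block, and leaving out each animal. Lengths came from GENCODE M21 transcripts and coordinates and promoters from RefSeq on GRCm38.p6. Figures were drawn with matplotlib 3.10.9.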

Additional observations from a re-analysis of the deposited data

Results flagged for a closer look

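In the groups of 5 or 6 libraries, for each of the 30 named genes and for the mean over the members, a library was noted where its gap to the nearest other library took an unusually large share of the group's range by Dixon's 95% value (0.710 for 5 libraries and 0.625 for 6). Of 124 groups 5 had such a library, and chance alone gives about 1 in 20, or 6.2. Mrps18b held a pair of them. Library IP_507 of EYFP IP stood at 2.34 log2 CPM with the next at 2.95, and library IP_501 of hTyr IP stood at 3.94 with the next at 3.33. Mrps22 in hTyr input had library Pre_510 at 4.71 with the next at 4.33. Mrpl1 in hTyr IP had library IP_509 at 5.24 with the next at 5.05. Mrpl33 in EYFP input had library Pre_511 at 4.86 with the next at 5.11.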

How the results depend on the processing

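The counts of 0 called members for hTyr against EYFP in IP, in input and in their difference were the same under every alternative run. In IP against input, median centring gave 10 lower members in EYFP and 16 in hTyr, and taking out the length and GC trend gave 30 higher members in hTyr, also with the replicate block. Leaving out each animal gave 18 to 24 higher and 2 to 8 lower members in EYFP, and 10 to 18 higher and 6 to 10 lower in hTyr. The replicate block alone gave 25 higher and 8 lower members in EYFP and 18 and 11 in hTyr, and ended no call of a named gene. The share of all genes called under each alternative is not given here, and the cause of these moves was not tested.

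Some directions turned. With the length and GC trend removed, with or without the replicate block, the values were 0.07 for Mrps18a in EYFP, and in hTyr -0.06 for Mrpl32, 0.15 for Mrpl34, 0.38 for Mrps12, 0.13 for Mrps18a, 0.20 for Mrps18b and 0.04 for Mrps18c. Median centring and quantile normalization gave -0.01 for Mrps12 in EYFP, and -0.04 and -0.01 for Mrpl12 in hTyr. Leaving out each animal gave -0.09 to 0.01 for Mrps18c in EYFP, and in hTyr -0.09 to 0.16 for Mrpl12, -0.08 to 0.03 for Mrps12 and -0.15 to 0.02 for Mrps18c. Summarised by its median, the family stood at 5.54 log2 CPM in EYFP input, 5.57 in EYFP IP, 5.60 in hTyr input and 5.59 in hTyr IP. In the 250 bases before the start the YY1 count was 2. Depth limited Mrps18b most, with 85 reads in its lowest library.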
